A study of Mus musculus with 5 samples.

Results

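Mouse embryonic stem cells that were being differentiated towards a pancreatic fate on gelatin were profiled before and after a single day of culture, from day 5 to day 6, without any drug. The day 5 sample (M1) and the untreated day 6 sample (M2-cont) were chosen by their labels, and are 2 of the 5 samples of the series. The other 3 are untreated cells at day 8 and cells given the compound MPA at 2 µM from day 5, taken at day 6 and at day 8. All 5 were derived from embryonic stem cells in the same way and carry no named genetic change. The labels name neither the cell line nor the medium or growth factors of any day. Day 5 is the day on which MPA was added to the treated cultures, so the comparison gives the change that untreated cells went through over the first day of that treatment.

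Each group had 1 array. There is therefore no replicate spread and no test, and every difference is one between those arrays, described by its size. Of 18193 genes with a probe set of 1 gene symbol, 12611 had a signal above a floor of 86.8 on the day 5 array, the day 6 array or both, and are called measured. The floor is the median of all probe sets that are not controls. The other 5582 genes lay under it on both arrays and have no fold. A signal under the floor was raised to it before a fold was taken, so a gene that was under it on 1 array has a fold written as "at least". Signals are printed as deposited, and signals under 86.8 are not ranked among each other. Genes described as within or under 2-fold include some with 1 array at the floor, for which only the bound is under 2-fold. In RNA from a whole culture, fewer cells of a type and less RNA per cell cannot be told apart.

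In the embryo, the epiblast passes from the naive pluripotent state to a primed one before cells leave it through the primitive streak as mesoderm and definitive endoderm. Nodal, a ligand of the TGF-beta family, acts with its co-receptor Tdgf1 to pattern this step, and its own targets Lefty1 and Lefty2 are secreted inhibitors of it. Retinoic acid is a later patterning signal. It binds RAR and RXR receptors on DNA, turns on Hox genes from the 3′ end of each cluster, and induces the genes for its own receptor and for the enzymes that clear it. In the gut tube, retinoic acid helps to set the domain in which the pancreas forms.

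The best known retinoic acid response elements are direct repeats of a 6-base unit with a spacer of 5 bases (called DR5) or 2 bases (called DR2). Among RefSeq promoters (GRCm38.p6, 250 bases before to 50 bases after each start), searched on both strands for both repeats, a DR5 was found in 32 of 32851 (0.0974%). Among the promoters of measured genes a DR5 was found in 5 of 12989 (0.0385%). Rarb and Cyp26a1, each with 1 promoter in the table, were the genes with such a match among those at least 2-fold higher at day 6, whose promoters held it in 2 of 716 cases (0.279%). None of the 560 promoters of genes at least 2-fold lower held it. The 716 promoters belong to 532 of the 689 higher genes, and the 560 to 432 of the 555 lower genes. The matches are shown because both genes belong to the retinoic acid system described next; capitals mark the repeat units, and each line includes 6 flanking bases on either side.
Rarb (chr14:16575507-16575535, minus strand): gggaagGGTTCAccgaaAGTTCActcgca
Cyp26a1 (chr19:37697770-37697798, plus strand): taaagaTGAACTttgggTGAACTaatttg
The Rarb repeat starts 53 bases before the start of the gene and reads in the direction of the gene. The Cyp26a1 repeat starts 32 bases before the start of the gene and reads on the opposite strand, so its units appear as reverse complements. Both lines are printed in the direction of the gene, and the coordinates include the flanking bases. A DR2 was found in 88 of the 32851 promoters (0.268%) and in 8 of the 12989 promoters of measured genes (0.0616%). It was found in 2 of the 716 promoters of the higher genes (0.279%), those of Tinagl1 and Casd1. Of the 560 promoters of the lower genes 1 held it (0.179%). None of the 9 promoters matched to Hox genes of paralogues 1 to 5 held either repeat. A match describes the letters of these windows and is not a binding site measured here.

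Over the day, 689 genes were at least 2-fold higher at day 6 (5.46% of those measured) and 555 were at least 2-fold lower (4.4%), together 1244 of 12611 (9.86%). A difference of 4-fold or more was seen for 128 higher and 96 lower genes (1.78% in all), and one of 8-fold or more for 38 and 21. The median log2 difference over all measured genes was 0.02, with 6507 genes above 0 and 6104 below it. Of the higher genes, 199 were under the floor at day 5, and 155 of the lower genes were under it at day 6. Among the 9998 genes above the floor on both arrays, 890 differed by 2-fold (8.9%).

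The arrays were alike in scale. The median signal was 86.7 at day 5 and 86.4 at day 6, and 49.98% and 49.9% of the probe sets lay above the floor. As deposited, each array has a 2% trimmed mean of 500, and the floor is the median over the arrays. These figures are therefore largely set in advance and do not show that the cultures were alike. The ratio of 3′ to 5′ probe set signals, a sign of RNA integrity, was 1.08 and 1.19 for Gapdh and 2.08 and 3.04 for Actb, and its part in the differences was not tested. A control probe set family for the bacterial gene trpnX, which the cells lack, reached 16.7 and 10.1, under the floor. The share of genes past 2-fold differed with brightness: with genes split into 4 groups of equal size by mean signal, 7.10% passed 2-fold in the dimmest group, 19.6% in the second, 8.31% in the third and 4.44% in the brightest.

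The genes that stood furthest apart fell into recognisable groups. Among the 15 highest were Crabp2 and Rarb of the retinoic acid system, the Hox genes Hoxc5, Hoxa5 and Hoxc4, and the transcription factor genes Tshz1, Foxc2 and Meox1. Among the 15 lowest were genes of the pluripotent epiblast and the primitive streak, led by Tdgf1, Fgf8 and Otx2. With the floor used, the largest difference upward was in Csn3, which encodes kappa-casein, with a signal of 40.5 at day 5 and 5257 at day 6, at least 60.6-fold higher. Its place depends on the floor, since with the floor at the 25th percentile Foxc2 and Myl3 had larger log2 differences (7.40 and 7.22, against 7.02), and with probe sets averaged Csn3 had 2.96. The largest difference downward was in Tdgf1, with 16576 at day 5 and 33.6 at day 6, at least 191-fold lower.

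Other genes of the 15 highest belong to several processes. Myl3, which encodes a myosin light chain, had 7.09 at day 5 and 2203 at day 6, at least 25.4-fold higher, and 2 of its 2 further probe sets were also higher. Plat, the gene of tissue plasminogen activator, had 84.7 at day 5 and 1997 at day 6, at least 23.0-fold higher. Tgm2, the gene of tissue transglutaminase, had 404 at day 5 and 8308 at day 6, 20.6-fold higher, with its 5 further probe sets from log2 0.37 to 4.01. The remaining one outside the lists described below was Ypel2, with 95.2 at day 5 and 1488 at day 6, 15.6-fold higher. Of the 15 lowest, Gal, which encodes the neuropeptide galanin, had 1104 at day 5 and 6.55 at day 6, at least 12.7-fold lower. Rspo3, a secreted enhancer of Wnt signalling, had 2772 at day 5 and 47.8 at day 6, at least 32.0-fold lower. The further probe set of Rspo3 gave a log2 difference of only -0.18, so the size is uncertain. Lgals3, the gene of galectin-3, had 962 at day 5 and 47.1 at day 6, at least 11.1-fold lower. Apart from Tgm2, each of these 7 genes was near or under the floor on 1 of the arrays and well above it on the other.

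**Figure D1:**
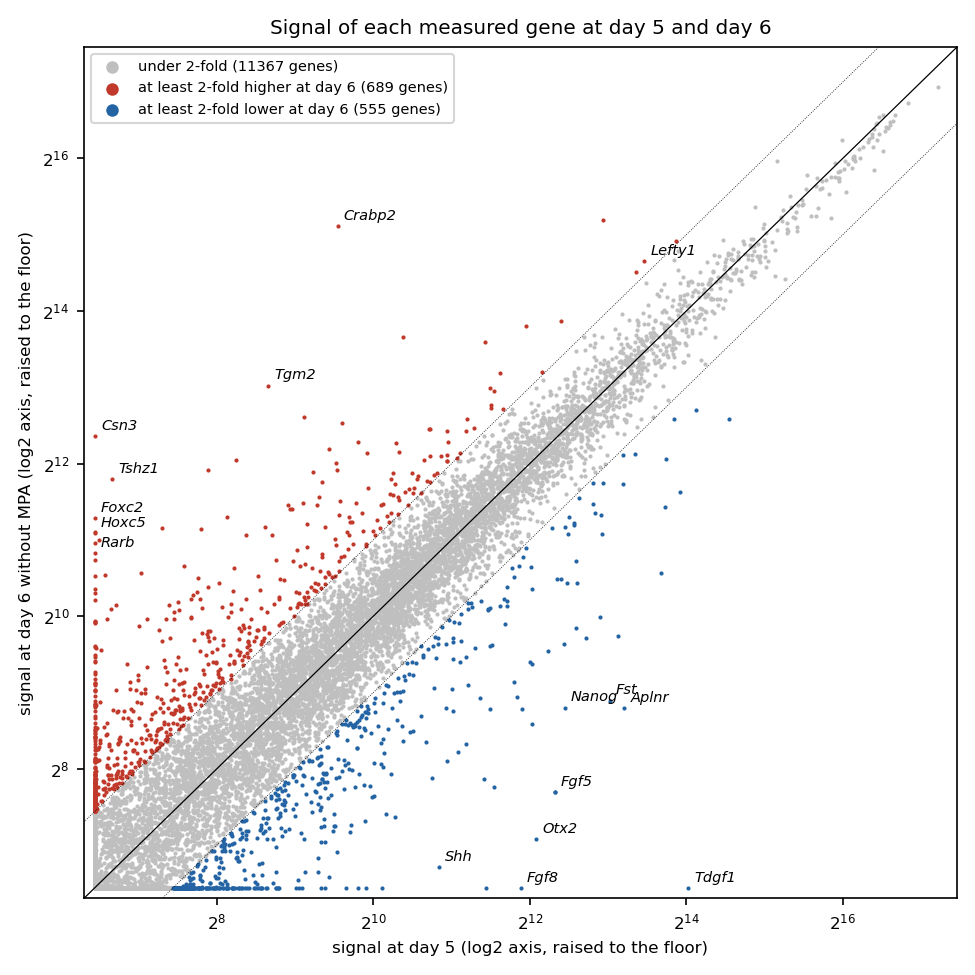
Each point is 1 measured gene, with its signal on the day 5 array along the x axis and on the untreated day 6 array along the y axis, both on log2 axes and with signals under the floor of 86.8 drawn at the floor. Dotted lines mark a 2-fold difference: the 689 genes in red lie above the upper line, the 555 in blue lie below the lower one, and Tdgf1 lies furthest from the diagonal.

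The gene lists described from here on were chosen with earlier results of these data known. Together, 177 of their 658 measured genes passed 2-fold, against 1244 of all 12611. Counts and medians of a list set beside those of all genes are therefore descriptions only. The retinoic acid list holds genes of synthesis, binding, reception and clearance. Of its 19 measured members, 7 were at least 2-fold higher at day 6 and 1 was 2-fold lower. Their median log2 difference was 0.37, against 0.02 over all genes. The higher members include a binding protein, a receptor and clearing enzymes, and no gene of synthesis. Crabp2, whose protein carries retinoic acid to its receptors, had a signal of 746 at day 5 and 35426 at day 6, 47.5-fold higher. Rarb, the receptor gene whose promoter repeat is printed above, had 6.05 at day 5 and 1818 at day 6, at least 21.0-fold higher. The clearing enzymes followed the same direction. Cyp26a1, the cytochrome P450 that breaks down retinoic acid, had 5408 at day 5 and 15006 at day 6, 2.77-fold higher. Cyp26b1, a second enzyme of that family, had 225 at day 5 and 878 at day 6, 3.90-fold higher. Dhrs3, which reduces retinaldehyde back to retinol, had 192 at day 5 and 1621 at day 6, 8.45-fold higher. Stra6, the membrane receptor for retinol-binding protein, had 51.5 at day 5 and 228 at day 6, at least 2.62-fold higher. Nrip1, a co-repressor of nuclear receptors, had 752 at day 5 and 2574 at day 6, 3.42-fold higher, and 2 of its 3 further probe sets were on the same side.

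The synthesis side showed no gene 2-fold higher. Rdh10, which makes retinaldehyde from retinol, had 916 at day 5 and 451 at day 6, 2.03-fold lower. The 3 retinaldehyde dehydrogenase genes, which make retinoic acid itself, were close to the floor on both arrays. Aldh1a1 had 18.0 and 95.3, Aldh1a2 95.5 and 55.2 and Aldh1a3 111 and 35.9 at day 5 and day 6. None of them differed by 2-fold above the floor. The other receptor genes differed less than Rarb. Rarg had 222 at day 5 and 132 at day 6 (log2 difference -0.75), Rxra 269 and 206 (-0.39), Rxrb 913 and 1653 (0.86) and Rxrg 116 and 100.3 (-0.21), and Rara was under the floor on both arrays. The remaining members were Crabp1, with 3711 and 2189 (-0.76), the carrier gene Rbp4, with 297 and 182 (-0.70), the coactivator gene Ncoa3, with 834 and 1075 (0.37), and Stra8, with 7.56 and 124, only just above the floor at day 6.

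Hox genes differed by their place in the clusters. Of the 11 measured genes of paralogues 1 to 5, which lie towards the 3′ end and pattern the hindbrain and anterior trunk, 10 were at least 2-fold higher and none was 2-fold lower, with a median log2 difference of 2.57. In the Hoxc cluster, Hoxc5 had 72.5 at day 5 and 2179 at day 6, at least 25.1-fold higher, and Hoxc4 had 238 and 3862, 16.2-fold higher. The 2 further probe sets of Hoxc5 were also higher, but by log2 differences of 1.14 and 1.73 only, so the size is uncertain. All 5 measured Hoxb genes of this group were higher. Hoxb1 had 222 at day 5 and 2262 at day 6, 10.2-fold higher. Hoxb2 had 650.0 and 3463, 5.33-fold higher, Hoxb3 had 215 and 1274, 5.93-fold higher, and Hoxb4 had 182 and 1080.1, 5.93-fold higher. Hoxb5 was under the floor at day 5, with 6.96 and 578, at least 6.67-fold higher. In the Hoxa cluster, where 3 of 3 measured genes were higher, the difference was widest for Hoxa5, with 15.3 at day 5 and 1477 at day 6, at least 17.0-fold higher. The further probe set of Hoxa5 gave a log2 difference of 1.68, against 4.09 on the one used, so this size is uncertain too. Hoxa2, with 63.8 and 195, and Hoxa3, with 129.5 and 279, lay closer to the floor and were at least 2.25-fold higher and 2.15-fold higher. Hoxd1 was the exception, with 346 at day 5 and 188 at day 6 and a log2 difference of -0.88. Hoxa4 and Hoxd3 were under the floor on both arrays.

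Of the 12 measured genes of paralogues 6 to 13, which pattern the posterior body, 2 were at least 2-fold higher and none was 2-fold lower. That is 16.7% higher, beside 5.46% of all measured genes. The median log2 difference was 0.51, and 9 of the 12 lay above 0. A further 8 were under the floor on both arrays. Hoxb13 had 96.7 at day 5 and 1002 at day 6, 10.4-fold higher, and stood apart from its neighbours: it was 53.3 at day 8, under the floor, and 239.9 in the cells with MPA at day 6. Hoxc9 had 25.2 and 227, at least 2.61-fold higher. The other 10 measured members had signals of at most 227 (Hoxc6) on the day 6 array, and Hoxa11 and Hoxa13 were under the floor there. Hoxa9, for example, had 213 and 199 at day 5 and day 6.

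**Figure D2:**
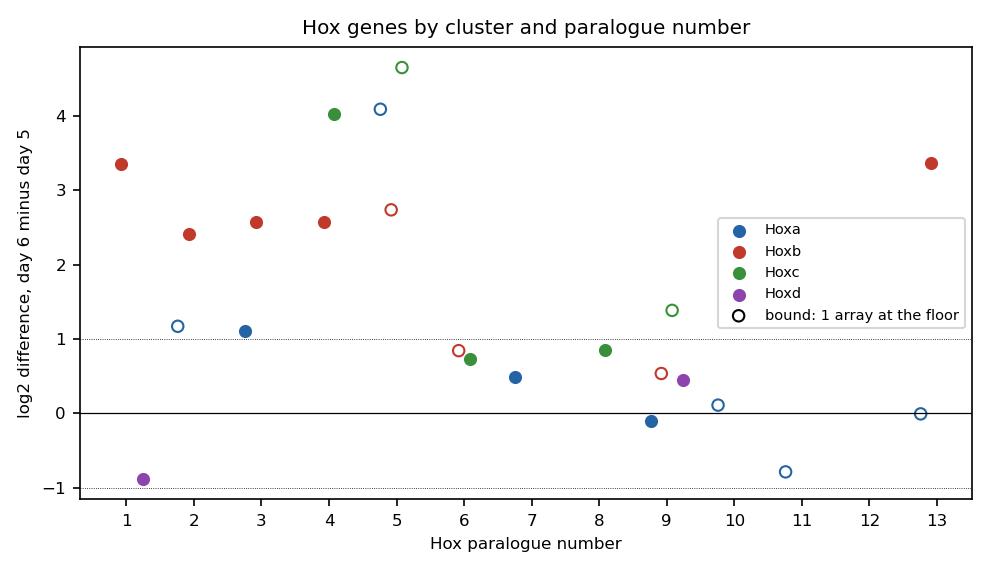
The log2 difference of each measured Hox gene, day 6 minus day 5, is plotted against its paralogue number, with 1 colour per cluster and 1 point per gene; open circles are bounds, with 1 array at the floor, and dotted lines mark 2-fold. Of the genes of paralogues 1 to 5 all but Hoxd1 lie above the upper dotted line, and of paralogues 6 to 13 Hoxb13 and Hoxc9 do.

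Partners and companions of the Hox proteins were also higher. Of 12 measured genes of the Meis, Pbx, Tshz, COUP-TF and Cdx list, which also holds Nr6a1, 8 were at least 2-fold higher and 1 was lower. The median log2 difference was 1.47. Tshz1, a zinc finger factor of the trunk, had 101 at day 5 and 3548 at day 6, 35.0-fold higher, and its further probe set was also higher. Tshz3 had 16.0 and 215, at least 2.48-fold higher. The cofactor genes Meis1 and Meis2 and Pbx2 encode homeodomain proteins that bind DNA with Hox factors. Meis1 had 217 at day 5 and 1450.0 at day 6, 6.69-fold higher. Meis2 had 1215 and 3758, 3.09-fold higher, and Pbx2 had 878 and 2867, 3.26-fold higher. For these 3 genes all further probe sets were on the same side, from log2 0.10 for Meis1 to 1.86 for Meis2. The COUP-TF orphan receptor genes gave the same direction. Nr2f1 had 16.3 at day 5 and 778 at day 6, at least 8.96-fold higher, and Nr2f2 had 268 and 1109, 4.14-fold higher, with its 4 further probe sets from log2 0.10 to 1.51. Within the Cdx family of posterior factors the genes diverged. Cdx1 had 3.98 at day 5 and 203 at day 6, at least 2.34-fold higher, whereas Cdx2 had 529 at day 5 and 86.0 at day 6, at least 6.10-fold lower. Pbx3 (3236 and 3772), Meis3 (13.7 and 130.0) and Nr6a1 (3348 and 2342) differed by less than 2-fold.

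Genes of the primed epiblast were lower at day 6. All 12 measured members had a log2 difference under 0, 9 were at least 2-fold lower, and the median was -2.29. Otx2, the anterior homeobox gene, had a signal of 4336 at day 5 and 136 at day 6, 32.0-fold lower. Fgf5, the standard marker of the primed state, had 5101 at day 5 and 207 at day 6, 24.6-fold lower. Pim2, which encodes a kinase, had 5134 and 207, 24.8-fold lower. The zinc finger genes Zic2 and Zic5 were close in size. Zic2 had 2732 at day 5 and 232 at day 6, 11.8-fold lower, and Zic5 2159.5 and 299, 7.23-fold lower. Pou3f1 had 1461 and 362, 4.04-fold lower, the receptor gene Epha1 had 948 and 159, 5.96-fold lower, and the amino acid transporter gene Slc7a3 had 3344 and 1175, 2.84-fold lower. Dnmt3b, the de novo DNA methyltransferase gene, was still bright at day 6, with 13718 at day 5 and 4266 at day 6, 3.22-fold lower. The 3 members under 2-fold were Dnmt3a (1935 and 1512, with 1 of its 4 further probe sets lower and the highest of them at a log2 difference of 1.08), Sox3 (529.8 and 453) and Foxd3, which went under the floor (108 and 13.7).

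The pluripotency network was split. Of 19 measured members, 7 were at least 2-fold lower and 2 higher, with a median of -0.37. Its core factors Nanog and Pou5f1 (Oct4) were lower. Nanog had 5572 at day 5 and 446 at day 6, 12.5-fold lower. Pou5f1 had 7598 at day 5 and 1016 at day 6, 7.48-fold lower. The third core factor, Sox2, which neural progenitors also use, differed little, with 2959 and 2687 (log2 -0.14). L1td1, an RNA-binding protein gene of stem cells, had 15459 and 3159.7, 4.89-fold lower, and Lin28a, which blocks let-7 processing, had 5782 and 2518, 2.30-fold lower. Gdf3, a ligand related to Nodal, had 1298 and 474, 2.74-fold lower. Dppa4 had 294 and 83.6, at least 3.38-fold lower, and Klf2 233 and 10.1, at least 2.68-fold lower. These were the 7 lower members. The 2 higher members belong to the naive circuit and were dim. Tbx3, which also marks early endoderm, had 90.6 at day 5 and 468 at day 6, 5.17-fold higher, with its 3 further probe sets from log2 0.16 to 1.55. Tfcp2l1 had 124 and 259, 2.09-fold higher. The naive state's own markers were near or under the floor at both days: Esrrb, Nr0b1, Dppa3 and Prdm14 were under it on both arrays, and Zfp42 (Rex1) had 137 and 85.8. Klf4, Klf5, Dppa5a, Dppa2 and Utf1 were dim as well and within 2-fold, from a log2 difference of -0.28 for Utf1 to 0.73 for Klf4. Fgf4, an FGF ligand of pluripotent cells, had 115 and 126 on the probe set used, while its 2 further probe sets were lower at day 6, by log2 differences of -2.14 and -1.87. Sall4 (12404 and 6867) and Trim71 (6777 and 5228) stayed bright and were lower by less than 2-fold, though a further probe set of Sall4 gave -1.15.

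In the Nodal pathway, Nodal, Lefty1, Lefty2 and Dact2 did not share the direction of the co-receptors, whereas the inhibitor genes Fst and Cer1 did. Of 18 measured members, 3 were at least 2-fold higher and 5 lower (median -0.26). Nodal itself had 3882 at day 5 and 5943 at day 6 (log2 0.61), and its further probe set was also higher. Lefty1, its secreted inhibitor and target, had 11261 at day 5 and 25814 at day 6, 2.29-fold higher. Lefty2, a second inhibitor, had 1254 at day 5 and 4931 at day 6, 3.93-fold higher. Dact2, an antagonist that promotes degradation of Nodal receptors, had 333 and 1194, 3.59-fold higher. The co-receptor genes went the other way. Tdgf1 (Cripto) was under the floor at day 6 as given above, at least 191-fold lower, and its relative Cfc1 (Cryptic) had 2634 at day 5 and 488 at day 6, 5.40-fold lower. Among other extracellular inhibitors, Fst (follistatin, which traps activin) had 8307 at day 5 and 476 at day 6, 17.5-fold lower, and Cer1 (Cerberus) had 667 and 6.95, at least 7.69-fold lower. The ligand gene Gdf3 is given above. The parts that relay the signal differed by less than 2-fold: the receptor genes Acvr1b (1866 and 1434), Acvr2a (824 and 1188) and Acvr2b (2159 and 1605), the effectors Smad2 (777 and 676) and Smad3 (1549.8 and 1876), the partner Foxh1 (873 and 855) and the feedback gene Smad7 (611 and 690.0). On further probe sets Acvr2b and Smad7 were lower, by log2 differences of -1.51 and -1.13. The same held for the genes of the convertases that cut the Nodal precursor, Furin (353 and 249) and Pcsk6 (107 and 36.4).

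Primitive streak and mesendoderm genes were mostly lower, 11 of 18 measured members by at least 2-fold, with a median log2 difference of -1.67. Eomes, the T-box factor at the head of mesendoderm, had 2973 at day 5 and 218 at day 6, 13.7-fold lower. Mixl1, a homeobox gene of the streak, had 800.5 at day 5 and 59.6 at day 6, at least 9.23-fold lower. Aplnr, the apelin receptor gene of early mesendoderm, had 9436 at day 5 and 443 at day 6, 21.3-fold lower. Fgf8, the streak's FGF ligand, had 3769.6 at day 5 and 5.80 at day 6, at least 43.4-fold lower. All 4 were thus far above the floor at day 5. Lhx1 and Gsc, genes of the anterior streak and the organiser, were lower as well. Lhx1 had 6733 and 839, 8.02-fold lower, and Gsc 618 and 207, 2.98-fold lower. The Wnt-linked genes Sp5, Sp8 and Wnt8a were lower too, Sp5 with 659 and 153, 4.32-fold lower, Sp8 with 1091 and 323, 3.38-fold lower, and Wnt8a with 544 and 10.6, at least 6.27-fold lower. Evx1, of the posterior streak, had 518 and 3.94, at least 5.97-fold lower, and Mesp1, of the first mesoderm, 187 and 31.2, at least 2.15-fold lower. The 4 higher members were Cyp26a1 and Cdx1, which are given above, Foxc1 (125 and 323) and Wnt3a (74.7 and 177). Wnt3 (96.4 and 90.4), Pdgfra (241 and 306) and Fgf17 (153 and 56.7) differed by less than 2-fold, and Tbx6, Msgn1, Mesp2 and Snai1 were under the floor on both arrays.

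FGF ligands and the feedback genes of ERK signalling were lower in 9 of 28 measured members and higher in 4 (median -0.59). Besides Fgf8 and Fgf5, the ligand gene Fgf15 had 2207 at day 5 and 677 at day 6, 3.26-fold lower. Several feedback inhibitors that ERK induces were lower. Spry2 had 5521 at day 5 and 794 at day 6, 6.95-fold lower. The phosphatase genes Dusp4 and Dusp6 had 2051 and 527, 3.89-fold lower, and 7819 and 3417, 2.29-fold lower. Il17rd (Sef) had 7145 and 2839, 2.52-fold lower, and Spred3 had 258 and 66.6, at least 2.98-fold lower. The immediate early gene Egr1 had 1242 and 164, 7.55-fold lower. Not all feedback genes were lower by 2-fold: Etv5 had 1685 and 1136 and Spry1 753 and 607. For Spred2 the probe sets disagreed, with 2397 and 2639 on the one used and log2 differences of -0.52 and -1.53 on the others. The higher members include a receptor and a carrier. Fgfr2, whose product is the receptor for Fgf10 in foregut epithelium, had 167 at day 5 and 1131 at day 6, 6.76-fold higher, but its 2 further probe sets differed by log2 0.00 and 0.51 only, so the size of its difference is uncertain. Fgfbp3, which encodes an FGF-binding protein, had 693 and 4679.7, 6.75-fold higher. Phlda1 had 736 and 4125, 5.60-fold higher, and Flrt3 927 and 2615, 2.82-fold higher. Fgfr1 had 1992 and 2135, and its 2 further probe sets gave log2 differences of 0.34 and -1.02.

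Endoderm genes were present at both days and diverged. Of 20 measured definitive endoderm genes, 3 were at least 2-fold higher and 4 lower, with a median log2 difference of 0.34. Sox17, the defining transcription factor of definitive endoderm, had 3104 at day 5 and 3669.9 at day 6 (log2 0.24). The forkhead genes Foxa1 and Foxa2, pioneer factors of the gut tube, went opposite ways. Foxa1 had 489.7 at day 5 and 2705 at day 6, 5.52-fold higher. Foxa2, which the streak and the node also express, had 5711 at day 5 and 1378 at day 6, 4.15-fold lower. The 4 lower members were Foxa2, Cxcr4, Hhex and Cer1. Cxcr4, the chemokine receptor used to sort definitive endoderm, had 2316 at day 5 and 319.9 at day 6, 7.24-fold lower. Hhex, of anterior endoderm, had 1114 and 259.5, 4.29-fold lower, and Cer1 is given above. The serine protease gene Tmprss2 had 331 and 2139, 6.47-fold higher, and 2 of 2 further probe sets were higher. The GATA factor gene Gata6, of early endoderm, had 1626 and 2993 (log2 0.88). Gata4, Foxa3, Spink1, Kitl, Gpc1, Pyy, Cldn6, Krt8 and Trh also lay within 2-fold, with log2 differences from -0.65 for Trh to 0.93 for Foxa3. The epithelial genes of this list were bright at both days. Epcam had 9426 and 9158, with -1.61 on the log2 scale on its further probe set, and Cdh1 (E-cadherin) had 8083 and 8119.

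Epithelial junction and keratin genes gave 4 higher and 0 lower of 21 measured (median 0.24). The higher ones were keratins and desmosome genes. Krt7 had 204 at day 5 and 1009.8 at day 6, 4.95-fold higher. Krt18 had 10496 and 23384, 2.23-fold higher, and its partner Krt8 had 15538 and 21199.6 (log2 0.45). Jup (plakoglobin) had 89.7 and 306, 3.41-fold higher, and Dsp (desmoplakin) 3234 and 6724, 2.08-fold higher. The remaining 17 members lay within 2-fold, from -0.79 for St14 to 0.93 for Cldn4.

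Few genes of the foregut and pancreatic bud stood above the floor by a clear margin. Pdx1, the defining factor of pancreatic progenitors, was under the floor on both arrays, as were Neurog3, Insm1, Nkx6-2, Nkx2-1, Tbx1 and Pax9. The defining marker of the pancreatic fate that the labels name as the aim was thus not measured above the floor at day 5 or day 6. Of 15 measured members 1 was at least 2-fold higher and 1 lower (13.3% together, beside 9.86% of all measured genes), with a median of -0.10. The higher one was Mnx1, a homeobox gene of the dorsal pancreatic bud, the notochord and motor neurons, with 131 at day 5 and 1518 at day 6, 11.6-fold higher. The lower one was Cdx2, which is given above. Sox4 and Sox11 were bright, with 15199 and 23759 and 6308 and 3250.1, and Sox9 had 343 and 321, with its further probe set higher at day 6 by 1.34 on the log2 scale. Ptf1a, which sets the pancreatic fate together with Pdx1, had 7.18 and 109. Hnf4a, Hnf4g, Onecut1, Onecut2, Gata5, Prox1, Isl1, Nkx6-1 and Nkx2-2 had day 6 signals of at most 244 (Isl1), under the floor for Prox1, Nkx6-1 and Nkx2-2, and their log2 differences ran from -0.91 for Prox1 to 0.75 for Gata5.

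Markers of cell types other than endoderm were measured on the same arrays, and their part in the differences above was not tested. In the paraxial mesoderm and somite list 5 of 9 measured members were higher and 1 lower (median 1.02), and the other 9, among them the defining presomitic genes Tbx6 and Msgn1, were under the floor. Its summed signal was 2616 at day 5 and 7046 at day 6. Foxc2, a forkhead gene of somites and mesenchyme, had 5.02 at day 5 and 2491 at day 6, at least 28.7-fold higher. Meox1, a somite homeobox gene, had 8.40 at day 5 and 1712 at day 6, at least 19.7-fold higher. Both were therefore under the floor at day 5. The Notch ligand gene Dll1 had 341 and 789.9, 2.32-fold higher, whereas Dll3 had 1038 and 429, 2.42-fold lower. Tcf15 (paraxis) differed by less than 2-fold, with 814 and 1050.1.

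Neural crest and dorsal neural tube genes were higher in 6 of 15 measured members and lower in none (median 0.83, summed signal 3065 at day 5 and 7505 at day 6). Ednrb, the endothelin receptor gene of crest cells, had 3.21 at day 5 and 1312 at day 6, at least 15.1-fold higher. Sox10, the defining crest factor, had 74.5 and 432, at least 4.98-fold higher, though its further probe set gave log2 0.24. Pax3 had 75.2 and 387, at least 4.46-fold higher, Pax7 51.4 and 191, at least 2.20-fold higher, and Snai2 53.2 and 363, at least 4.19-fold higher, though its further probe set gave log2 0.15. All these were under the floor at day 5, and Foxd3, an early crest marker that the epiblast shares, went under it at day 6. Erbb3 had 767 and 1749, 2.28-fold higher.

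Neural progenitor and neuron genes did not share a direction. Of 24 measured, 5 were higher and 7 lower (median 0.27, summed signal 26233 and 19584). The higher ones besides Pax3 and Pax7 were Irx3, with 1965 at day 5 and 5478 at day 6, 2.79-fold higher, the proneural gene Neurog1, with 1.95 and 343, at least 3.95-fold higher, and the Notch target Hes5, with 14.6 and 227, at least 2.61-fold higher. The lower ones included the neural progenitor genes Sox1 and Fabp7. Sox1 had 920.3 at day 5 and 346 at day 6, 2.66-fold lower, and Fabp7 466 and 146, 3.20-fold lower. Six3, of the forebrain, had 200.0 and 56.9, at least 2.31-fold lower, against log2 0.00 on its further probe set, and the neuronal genes Stmn2 and Tubb3 had 7697 and 2559, 3.01-fold lower, and 174 and 66.5, at least 2.01-fold lower. The sign of this list's median depended on the floor: it was -0.07 with the floor at the 25th percentile and -0.24 at the 75th.

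Mesenchyme and matrix genes were higher in 7 of 22 measured members and lower in none (median 0.70), while their summed signal was 41210.1 at day 5 and 37070.4 at day 6. Dcn (decorin) had 4.65 at day 5 and 521 at day 6, at least 6.01-fold higher. Pdgfrb, the PDGF receptor gene of mesenchymal cells, had 232 and 716, 3.09-fold higher. Col5a1 had 845 and 2411, 2.85-fold higher, Col1a2 552 and 1218, 2.21-fold higher, Cdh11 342 and 876, 2.57-fold higher, and Prrx1 113 and 262, 2.31-fold higher. The further probe sets of Prrx1 gave log2 differences of -0.16 and 0.11. The brightest members lay under 2-fold: Vim (vimentin) had 16392 and 12046, Fn1 (fibronectin) 7148 and 3937 and Sparc (osteonectin) 6555 and 6887.

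Cardiac and muscle genes showed no common direction, with 2 higher and 2 lower of 13 measured (30.8% together, beside 9.86% of all measured genes). Myl3 is given above, and Mef2c had 3.99 and 203, at least 2.34-fold higher. Acta2 (smooth muscle actin) had 3156 at day 5 and 1127 at day 6, 2.80-fold lower, and Mesp1 is given above. The sarcomere genes Tnnt2, Myh7, Myl2, Myl4 and Actn2 were under the floor at both days. In the endothelium and blood list 1 of 11 measured members passed 2-fold (9.09%, beside 9.86% of all measured genes). It was Gata1, with 217 and 84.6, at least 2.50-fold lower. The list's defining genes Pecam1, Tek, Tie1 and the embryonic globins Hbb-bh1 and Hba-x were under the floor. Flt1, a VEGF receptor gene, had 2102 and 3468. In the liver and yolk sac list 2 were higher and 1 lower of 13 measured (23.1% together). Ttr (transthyretin) had 5.19 at day 5 and 342 at day 6, at least 3.94-fold higher, Apob 6.16 and 176, at least 2.03-fold higher, and Apoc1 221 and 83.2, at least 2.54-fold lower, while Afp was under the floor on both arrays. In the germ line list none of 7 measured members reached 2-fold, and the defining genes Ddx4, Dazl and Dppa3 were under the floor.

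Among Wnt ligands, targets and feedback genes 6 were at least 2-fold higher and 9 lower of 26 (median -0.01). Some targets and feedback genes of the canonical pathway were among the lower ones. Lef1, a transcription factor of the pathway, had 848 at day 5 and 253 at day 6, 3.36-fold lower. Dkk1, a secreted inhibitor that Wnt induces, had 642 and 150.5, 4.27-fold lower, Ccnd1 (cyclin D1) had 2941 and 788, 3.73-fold lower, and Notum had 207 and 81.9, at least 2.39-fold lower. Axin2, a general target of the pathway, differed little, with 272 and 284. Of the receptors and inhibitors, Fzd5 had 1756 and 535, 3.29-fold lower, and Frzb 1118 and 336, 3.33-fold lower. On the higher side stood Sfrp5, a secreted Wnt inhibitor of the ventral foregut, with 90.5 at day 5 and 2052 at day 6, 22.7-fold higher. The further probe set of Sfrp5 gave only 0.46 on the log2 scale, so the size is uncertain. Dkk3 had 69.3 and 336, at least 3.87-fold higher, Lgr5 57.7 and 195, at least 2.25-fold higher, and Wnt5b 114 and 283, 2.49-fold higher, against -0.62 on the log2 scale on its further probe set. The ligand genes Wnt4, with 366 and 137, and Wnt8a were lower. The ligand gene Wnt3a and the list member Cdx1, both given above, were higher. The list's median was 0.00 under quantile normalization, and over the alternatives it ran from -0.72, with the floor at the 75th percentile, to 0.03, with probe sets averaged.

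The BMP and TGF-beta list gave 3 higher and 6 lower of 22 measured. The ligand gene Bmp4 had 849.9 at day 5 and 381 at day 6, 2.23-fold lower, while Bmp2 had 723 and 1406 (log2 0.96). The BMP targets Id1 (1868 and 1718) and Id3 (2088 and 1842) differed little, Id2 had 1806 and 3743, 2.07-fold higher, and Id4 had 267 and 122, 2.20-fold lower, on the probe set used, a difference that neither of its 2 further probe sets shared. The inhibitor gene Smad6 had 390.0 and 842, 2.16-fold higher. Tgfb2 had 89.4 and 204, 2.29-fold higher, and the co-repressor gene Tgif1 2193 and 960.3, 2.28-fold lower. The matricellular genes Ccn1 and Ccn2, which respond to YAP and TGF-beta, were lower. Ccn1 had 6151 and 916, 6.72-fold lower, with 3 of 3 further probe sets on the same side, and Ccn2 5580.0 and 2295, 2.43-fold lower.

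In the Notch and Hedgehog pathways 6 genes were higher and 5 lower of 24. The ligand gene Shh had 1828 at day 5 and 105 at day 6, 17.4-fold lower, and Ptch1, receptor and target of Hedgehog, had 9325 and 3403, 2.74-fold lower. Hhip, a second target that also binds the ligand, had 3.58 and 179, at least 2.07-fold higher, and the co-receptor gene Boc 87.5 and 279, 3.18-fold higher. Gli1 differed little, with 151 and 123. On the Notch side, Hey1 had 548 at day 5 and 2869 at day 6, 5.24-fold higher, whereas the ligand gene Jag1 had 1951 and 446, 4.37-fold lower, and Notch1 had 661 and 245, 2.70-fold lower. Hes1 lay within 2-fold (2191 and 1427).

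Receptors and ligands of migration and guidance gave 5 higher and 5 lower of 23. The chemokine receptors were opposed: Ackr3 (Cxcr7), which takes up the ligand of Cxcr4, had 622 at day 5 and 2803 at day 6, 4.51-fold higher, while Cxcr4 was lower as given above and the ligand gene Cxcl12 had 209.6 and 217. Of the apelin ligand genes, Apln had 394 and 176, 2.23-fold lower, but only -0.02 on the log2 scale with the floor at the 75th percentile, just under its day 5 signal, and Apela 2650.4 and 1352 (log2 -0.97). Epha2 had 517 and 186, 2.78-fold lower. The semaphorin receptor genes Plxna2 and Nrp2 had 379 and 1105, 2.92-fold higher, and 135 and 273, 2.02-fold higher.

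Genes of general cell function lay closer together. None of 25 proteasome genes, 21 cytosolic ribosomal protein genes, 21 genes of cholesterol and fatty acid synthesis and 21 genes of the unfolded protein response reached 2-fold. Of all measured genes 9.86% did, and of the brightest group 4.44%. The median log2 differences of these lists were -0.04, -0.11, -0.36 and 0.32. In the sterol list 17 of 21 were below 0, down to Idi1 with 10623 and 5703 (log2 -0.90). In the unfolded protein response list 18 of 21 were above 0, up to the chaperone genes Creld2, with 1122 and 1950.2, and Pdia6, with 7271 and 12239, and the transcription factor gene Xbp1, with 4139 and 7126. The ribosomal protein median was 0.02 under quantile normalization.

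Most cell cycle genes lay within 2-fold. Of 28 DNA replication genes 1 passed 2-fold, Uhrf1, which guides maintenance methylation, with 1974 at day 5 and 4178 at day 6, 2.12-fold higher, though its further probe set was not higher. Of 26 mitosis genes 1 passed, the checkpoint kinase gene Bub1b, with 1866 and 4381, 2.35-fold higher. These shares are 3.57% and 3.85%, beside 9.86% of all measured genes and 4.44% of the brightest group. In the mitosis list 24 of 26 were above 0, with a median of 0.31 and a range from -0.14 to 1.23. Mki67, the proliferation marker, had 6130.1 and 9051. Of 22 cell cycle inhibitors and p53 targets, Sesn1 was 2.09-fold higher (1084 and 2269.8) and Pmaip1 (Noxa) 2.77-fold lower (564 and 204). Their share of 9.09% is close to that of all measured genes. Cdkn1a (p21) had 3734 and 2191 (log2 -0.77, and -1.45 on its further probe set).

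Of 30 measured genes of ribosome biogenesis and the Myc family, 25 were below 0, with a median of -0.33, and 3 passed 2-fold (10%, beside 9.86% of all measured genes). These were Mycl, with 2070.2 at day 5 and 433 at day 6, 4.78-fold lower on the probe set used and -0.05 on the log2 scale on its further one, Myc, with 947 and 365, 2.60-fold lower, and the assembly factor gene Bop1, with 636 and 197, 3.22-fold lower. For Mycn, the Myc gene of embryonic cells, the probe sets disagreed, with 2167 and 2594 on the one used and log2 differences of -0.99 and -1.38 on the others. Of the 26 glycolysis and hypoxia genes 3 were lower (11.5%) and none higher. Ndrg1, a hypoxia-induced gene, had 4186 at day 5 and 386 at day 6, 10.9-fold lower, with all 4 further probe sets lower. Egln3 had 3716 and 1614, 2.30-fold lower, and Adm (adrenomedullin) 305 and 120.0, 2.54-fold lower. Glycolytic enzymes such as Ldha (86330.0 and 58634) and Aldoa (38350.0 and 37074) lay within 2-fold. In the amino acid and ATF4 list 1 of 22 was higher and 2 were lower (13.6% together, beside 9.86% of all measured genes). The higher one was Atf3, with 159 and 463, and the lower ones were Cth, with 3333 and 1128, and Mthfd2, with 3947 and 1901.

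Interferon response and antigen presentation genes were lower in 8 of 19 measured members and higher in none (median -0.57). The immunoproteasome genes were among them. Psmb10 had 3557 at day 5 and 565 at day 6, 6.29-fold lower, and Psmb8 had 1627 and 326, 4.99-fold lower. Irf1, the transcription factor that drives them in interferon responses, had 4167 at day 5 and 665 at day 6, 6.27-fold lower. Ifi35 had 667 and 131, 5.07-fold lower, Usp18 649.7 and 233, 2.79-fold lower, and Bst2 3856 and 1758, 2.19-fold lower. B2m, the light chain of MHC class I, had 2784 and 3419.8, within 2-fold, and Irf7, Ifit1 and Ifit3 were under the floor. Gbp2 had 685 and 197, 3.48-fold lower, and its further probe set gave a log2 difference of -1.88.

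Among 20 genes of DNA methylation, Polycomb and chromatin, Uhrf1 was higher and 3 were lower (20% together, beside 9.86% of all measured genes). Besides Dnmt3b these were the Polycomb genes Phc1, with 5206 at day 5 and 1439 at day 6, 3.62-fold lower, and Cbx7, with 659 and 226, 2.91-fold lower. The catalytic Polycomb gene Ezh2 had 7359 and 7787, Dnmt1 4064 and 4546 and Tet1 3523 and 1949.9, within 2-fold, and the 2 further probe sets of Tet1 ran from -2.66 to -0.82 on the log2 scale. Of 18 imprinted genes 1 passed (5.56%, beside 9.86% of all measured genes), Phlda2, with 345 and 121, 2.86-fold lower. The noncoding gene Meg3 had 13860.0 and 7263 (log2 -0.93), and all 10 further probe sets were on the same side.

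**Figure D3:**
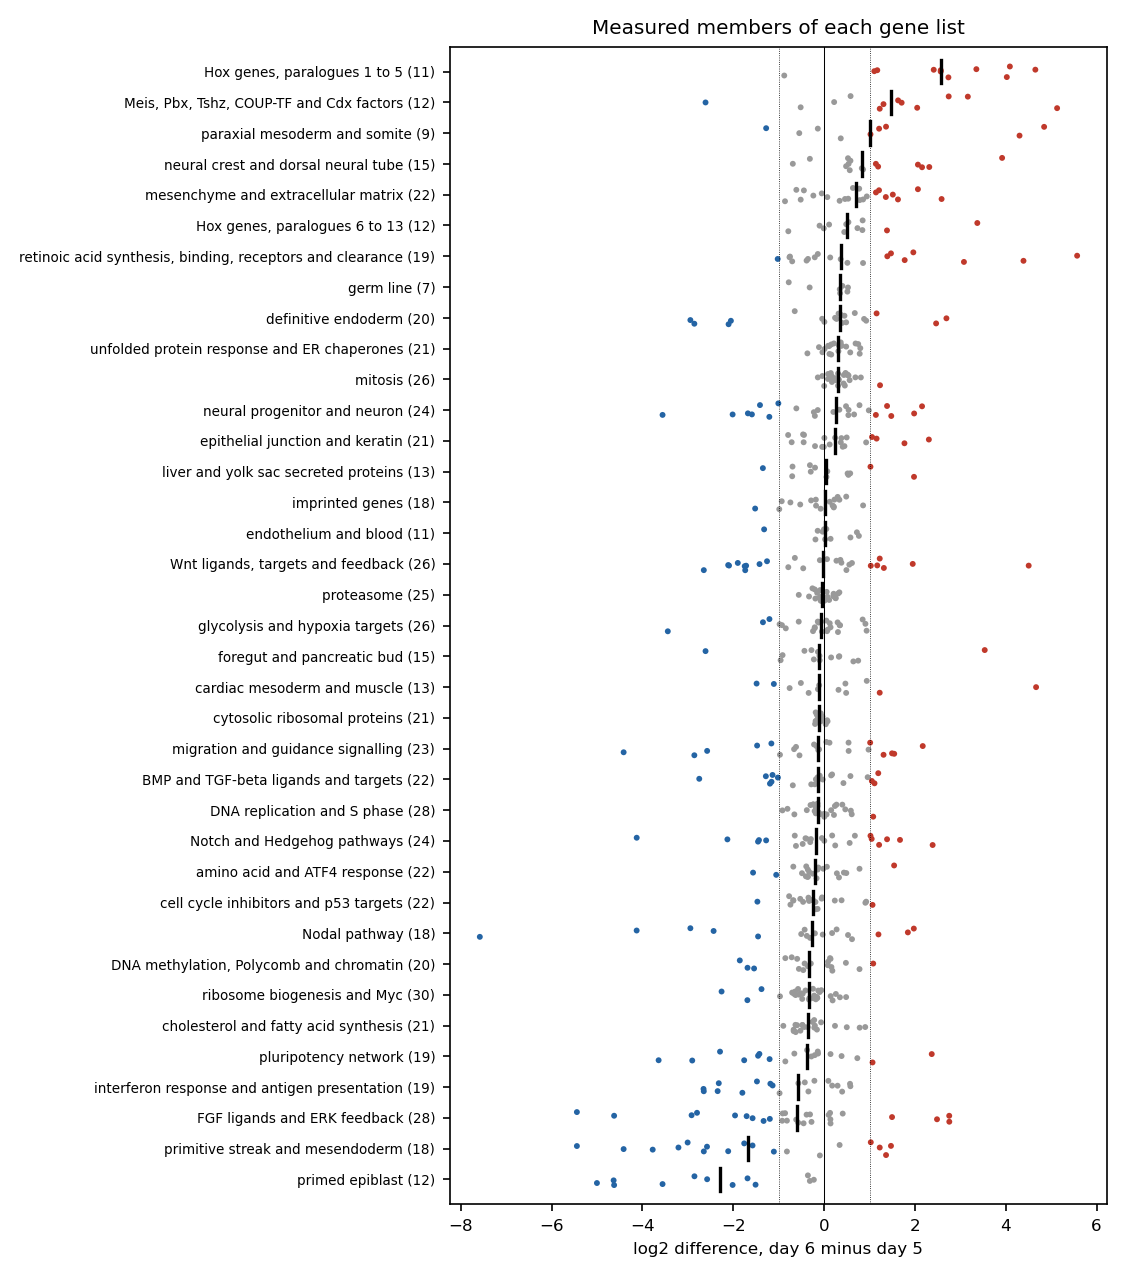
Each point is the log2 difference, day 6 minus day 5, of 1 measured member of a gene list, with the number of measured members in brackets, the median as a black bar and dotted lines at 2-fold; members with 1 array at the floor are drawn at their bound, and some genes belong to several lists. Medians run from 2.57 for Hox genes of paralogues 1 to 5 down to -2.29 for the primed epiblast, and no point of the proteasome or ribosomal protein lists passes a dotted line.

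The other arrays place these differences in time, although the comparisons of day 6 with day 5 and of day 8 with day 6 share the untreated day 6 array, so their values are only set side by side. Some genes that were higher at day 6 were lower again at day 8. Csn3 had 429 at day 8 after 5257 at day 6, Hoxb1 had 242 after 2262, and Cyp26a1 had 1985 after 15006. Hoxb1 was thus close to its day 5 signal of 222, and Cyp26a1 below its day 5 signal of 5408. Foxc2 had 342, Meox1 548 and Sfrp5 393 at day 8, each between its day 5 and its day 6 signal. Other genes had their highest untreated signal at day 8. Rarb had 3917, Hoxc5 4124, Tshz1 5876, Nr2f1 4822 and Foxa1 4339. Crabp2 had 21976, between its day 5 and day 6 signals.

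Nodal and its inhibitor genes Lefty1 and Lefty2 were near or under the floor at day 8, with 88.6, 76.5 and 2.53. The pathway's transcriptional partner Foxh1 was under it as well, with 5.05. The antagonist gene Dact2 had 468 and Fst 290.4 at day 8, above the floor. Tdgf1 was already under the floor at day 6 and had 1.66 at day 8. Pou5f1 had 96.0 and Nanog 20.1, so that Pou5f1, at 1016 on the day 6 array, was intermediate there.

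The day 6 array of cells given MPA is not a replicate of the untreated one, but it came from the same day. Signals with MPA are given here beside the untreated ones. Rarb had 1549, Hoxc5 1679, Tshz1 3883, Csn3 6062, Nodal 5942, Pou5f1 909.9 and Fgf5 225 with MPA. The untreated day 6 signals of these 7 genes were 1818, 2179, 3548, 5257, 5943, 1016 and 207. Crabp2 had 14248 with MPA and 35426 without, Lefty1 9942 and 25814, and Meox1 393 and 1712. Of these 10 genes, the last 3 were more than 2-fold apart between the day 6 arrays.

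**Figure D4:**
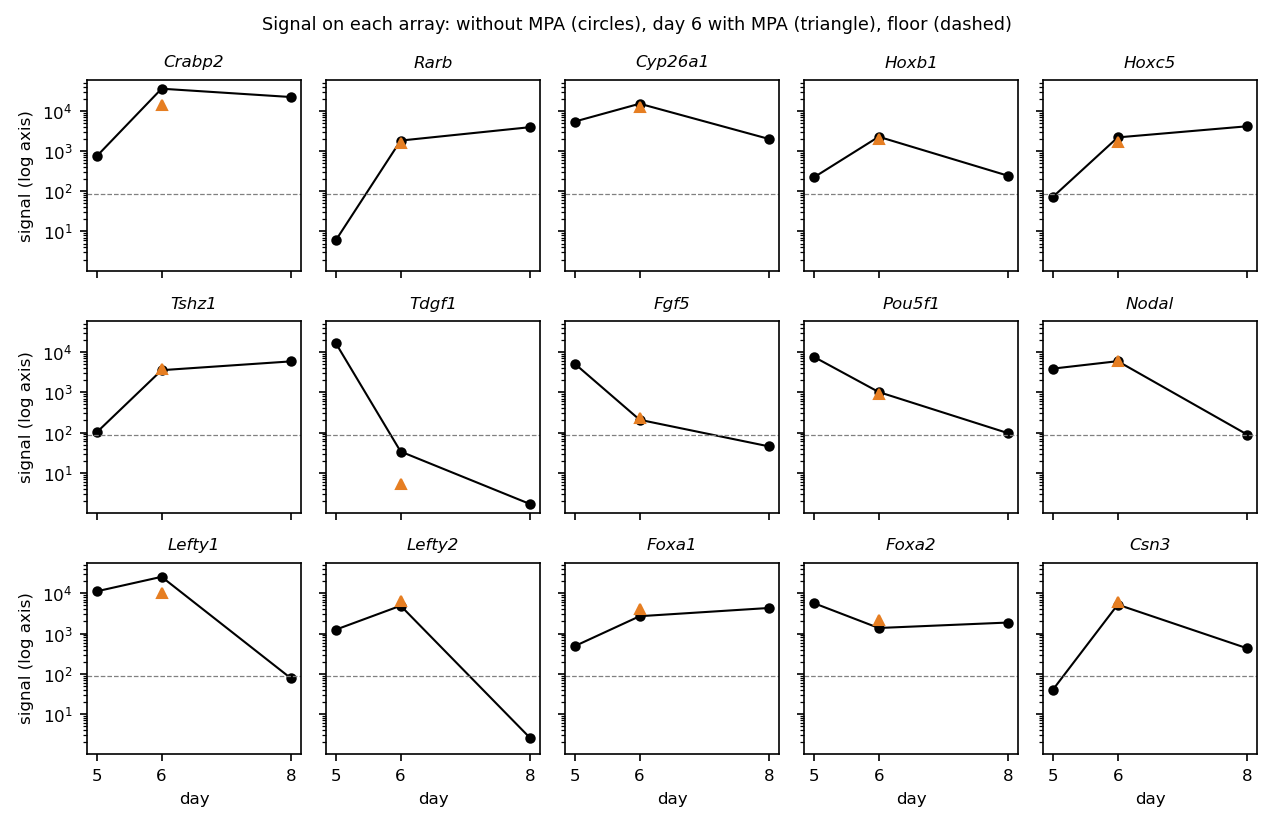
Each panel plots the signal of 1 gene, on a log axis, against the day of culture, with the untreated arrays at day 5, 6 and 8 as circles joined by a line, the day 6 array with MPA as a triangle and the floor of 86.8 as a dashed line; each symbol is 1 array. Crabp2, Rarb and Tshz1 are higher from day 6 on, Cyp26a1, Hoxb1 and Csn3 are highest at day 6, and Nodal, Lefty1 and Lefty2 are high at day 6 but near or under the floor at day 8.

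Further probe sets gave a check of single genes within the same arrays. Of the 1244 genes past 2-fold, 545 had at least 1 further probe set above the floor, 815 in all. Of these, 629 (77.2%) pointed the same way and 238 (29.2%) did so by 2-fold or more. In 12 genes a further probe set was 2-fold apart in the opposite direction. Of the 12, 5 are given here. Vsir, an immune checkpoint gene, had 42.6 and 683 on the probe set used, at least 7.87-fold higher, but a log2 difference of -1.29 on the other. Cyp7b1, an oxysterol hydroxylase gene, had 365 and 90.0, 4.06-fold lower, while its 2 further probe sets gave 1.04 and -1.56. Tbc1d15 (1189.7 and 3113), Efnb1 (366 and 906) and Rnf130 (1407 and 3253) had lowest further values of -1.17, -1.15 and -1.61 against a higher signal on the probe set used, and none of the 3 further probe sets of Rnf130 was higher. Directions of these 5 genes are uncertain.

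Some probe sets carry a suffix that marks probes shared between transcripts or genes (_s_at and _x_at) or between transcripts of 1 gene (_a_at). With these left out, 152 named genes stayed past 2-fold in the same direction and 11 kept their direction but lay under 2-fold on another probe set. Log2 differences were then 0.00 for Fgfr2, 0.15 for Snai2, 0.34 for Col1a2, 0.42 for Id2, 0.50 for Hoxa3 and -0.71 for Rdh10. They were 0.75 for Bub1b, 0.83 for Hes5, 0.84 for Dsp and 0.97 for both Boc and Efnb1. The 2-fold calls of these 11 genes therefore rest on such a probe set. So do those of named genes that gave no value here, having no measured probe set without such a suffix. Fgf8, Otx2, Dhrs3, Krt7 and Jup are among them.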

How the data were processed

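Total RNA (100 ng) of 5 cultures was labelled by 3′ in vitro transcription for 1 Affymetrix mouse array each, per the labels' protocols. The values that the authors deposited are linear intensities per probe set, made with MAS5 per the submitters' processing notes, with settings not given. They have a 2% trimmed mean of 500 on each array. Of 45101 probe sets, 64 were controls, and the 932 with several gene symbols and 9160 unnamed here were left out. Of the other 34945, 34741 matched RefSeq (GRCm38.p6). They stand for 18193 genes, 9010 with several probe sets, of which the one with the highest mean signal was used.

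Deposited intensities were raised to the floor (86.8) and taken to log2, and genes at least 2-fold apart were counted. With 1 array per group no test applies. The 37 lists hold 813 genes, 763 with a probe set and 658 measured; 177 of these passed 2-fold, against 1067 genes in no list. Members and lists were chosen with earlier results of these data known. Named genes were the 15 highest and 15 lowest, the 6 or fewer list members furthest apart, members of 8 lists of early fates and signals, and up to 5 genes with discordant probe sets; other members are named for context, after their values were seen. Alternatives were quantile normalization, median centring, a floor at percentile 25 or 75, adding the floor in place of raising, averaging probe sets, dropping probe sets named _s_at, _x_at or _a_at, and asking for both arrays above the floor. The counting was tested on simulated data, made from the day 5 array with little noise and 4-fold changes planted in bright genes only. That test does not bear on calls of dim genes or on how far replicate cultures would differ. Python 3.11.15, numpy 2.4.6, pandas 2.3.3 and matplotlib 3.10.9 were used.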

Additional observations from a re-analysis of the deposited data

How the results depend on the processing

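The counts of genes at least 2-fold higher and lower were 689 and 555. They were 2731 and 2554 with the floor at the 25th percentile, 244 and 194 at the 75th, and 410 and 350 with probe sets averaged per gene. The other 5 alternatives gave 490 to 755 higher and 400 to 652 lower genes, and quantile normalization gave 697 and 575. Of 184 named genes, 113 stayed past 2-fold in the same direction under every alternative that gave a value. Id4 reversed, to a log2 difference of 0.0101 with its probe sets averaged; the cause was not tested. The median of 29 of 37 lists kept its sign throughout. It changed in the foregut, liver, neural, cardiac, Wnt, ribosomal protein, glycolysis and imprinted lists, and the primed epiblast and Hox 1 to 5 medians ran from -2.57 to -1.73 and from 2.17 to 2.58. No paired analysis was possible because each group has 1 array and the difference comes from no test. Signals near the floor limit what can be said of dim genes, and no replicate shows how far 2 cultures of the same day would differ.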

Other observations

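A set of 3 further gene groups was put together after their values had been seen, so their counts are descriptions of these arrays only. Basement membrane genes were higher in 5 and lower in 2 of 17 measured members, with a median log2 difference of 0.38. Col4a1 and Col4a2, the paired chains of type IV collagen, had signals of 1337 at day 5 and 12867 at day 6 (9.63-fold higher) and of 279 and 2514 (9.00-fold higher). Npnt (nephronectin) had 101 and 1089, 10.8-fold higher, Smoc1 182 and 1161, 6.38-fold higher, and Col4a5 380.2 and 821, 2.16-fold higher. Smoc2 had 643 and 8.52, at least 7.42-fold lower, the reverse of Smoc1, and Lama5 795 and 385, 2.06-fold lower. The laminin genes Lamb1 (5691 and 8338) and Lamc1 (811 and 672) and the nidogen genes Nid1 (595 and 596) and Nid2 (1481 and 1587) differed by less than 2-fold.

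Immediate early and related response genes were lower in 8 and higher in none of 15 measured members (median -1.14). Sgk1, a kinase gene induced by serum and steroids, had 8960.4 at day 5 and 854 at day 6, 10.5-fold lower. Nr4a1 had 662 and 163, 4.07-fold lower, Ier3 6141 and 1694, 3.62-fold lower, Klf6 2455 and 1113, 2.21-fold lower, and Thbs1 (thrombospondin) 555 and 135, 4.11-fold lower, beside Egr1, Ccn1 and Ccn2. Jun (1683 and 2319.6), Junb (157 and 233), Dusp1 (2029 and 1612) and Ier2 (3473 and 3291) stayed within 2-fold. Of 8 measured genes of immunity-related GTPases and guanylate-binding proteins, which interferon induces, 5 were lower and none higher by 2-fold (median -1.89). Irgm1 had 897 at day 5 and 6.76 at day 6, at least 10.3-fold lower, and Igtp 1145 and 169, 6.77-fold lower. Irgm2 had 627 and 101, 6.23-fold lower, and Gbp7 359.8 and 91.3, 3.94-fold lower, and the last of the 5 is Gbp2. Iigp1 lay above 0 on the log2 scale (0.37), with 7.85 at day 5 and 112 at day 6.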
